A study of Mus musculus with 32 samples.

Results

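The RNA response of mouse spleen to cisplatin was measured in 4 RNA-seq libraries, 2 from cisplatin-treated and 2 from control animals, out of 32 libraries in the series. They were chosen by their labels as the spleen RNA-seq samples. The animals were wild-type C57BL/6J females aged 6 to 7 months with no engineered allele. Treated mice received a single intraperitoneal dose of 10 mg per kg of cisplatin at ZT1, where ZT is the number of hours after lights on, and control mice received an equal volume of saline. All were sacrificed at ZT5, although the labels also give 2 h as the time of treatment. Poly(A) RNA of whole spleen was sequenced, so that a lower level of a cell type's genes may reflect fewer such cells or less RNA per cell, and these cannot be told apart. A note with the data says that the labels of the spleen and lung RNA-seq libraries were corrected, and the present labels were used.

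Cisplatin forms adducts on DNA, mainly between neighbouring guanines, which stall RNA polymerase and are removed by nucleotide excision repair, faster on the transcribed strand (TS) than on the non-transcribed strand (NTS). The damage response works largely through the transcription factor p53, whose targets include the cell cycle inhibitor Cdkn1a and the apoptosis gene Bbc3. The spleen filters blood, houses B and T lymphocytes, and in the mouse also makes red blood cells. The tail of the pancreas, whose acinar cells make digestive enzymes, lies against the spleen.

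The libraries held 38719220 and 84864189 reads on genes for control 1 and 2, and 36795585 and 87161947 for cisplatin 1 and 2. Levels below are given as CPM, reads scaled to 1 common library size after TMM normalization. The 2 control libraries were nearly as alike as 2 draws of reads from 1 sample. An index of spread, the chi-square statistic divided by its degrees of freedom, is near 1 for such draws and was 2.98, against 134 for the cisplatin pair and 39.3 to 349 in the organs and arms other than lung controls, where it was 2.75. Of 11349 genes with a mean of at least 5 CPM, 21 (0.185%) lay 2-fold or more apart between the controls and 204 (1.8%) between the cisplatin libraries. The 2 control libraries were therefore summed and counted as 1 sample. The study describes its replicates as biological, but the sources used here do not tie each library to an animal, so the p-values measure only the spread between these libraries, with 1 residual degree of freedom.

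All 4 libraries carried genes of spleen cells. The B cell surface gene Ms4a1 ranged over 630.2 to 931 CPM, while no library of the other organs exceeded 95.4 CPM. Tlx1, the transcription factor required to form the spleen, was at 25.9 and 26.9 CPM in controls and 20.7 and 15.5 CPM after cisplatin, with at most 0.136 CPM elsewhere. Spic, which red pulp macrophages need, was at 122 and 124 CPM in controls and 97.6 and 88.0 CPM after cisplatin. No spleen library therefore went against its organ label by these genes, which do not bear on the labels of treatment. Those labels, on which every difference below rests, were not checked against the data.

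Promoter sequences of 5 genes are shown because the genes stand for the 3 patterns described below, namely pancreatic enzymes, a p53 target and glucocorticoid-induced genes. Each is the 250 bases before a start that RefSeq lists for the gene on GRCm38.p6, written 5′ to 3′ on the gene's strand. Some genes have more than 1 listed start, with 32851 windows over 27025 genes, and any other window of a gene is not shown. In Ctrb1 (chr8:111691011-111691260, minus strand) and Cela1 (chr15:100687921-100688170, minus strand) the capitals mark CANNTG followed after 4 to 6 bases by TTTCCC, the arrangement bound by the acinar factor PTF1.
Ctrb1: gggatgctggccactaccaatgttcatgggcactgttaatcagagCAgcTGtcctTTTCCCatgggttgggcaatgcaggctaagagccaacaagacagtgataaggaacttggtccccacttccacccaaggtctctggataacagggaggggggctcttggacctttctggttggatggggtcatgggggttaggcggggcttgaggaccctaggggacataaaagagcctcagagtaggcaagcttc
Cela1: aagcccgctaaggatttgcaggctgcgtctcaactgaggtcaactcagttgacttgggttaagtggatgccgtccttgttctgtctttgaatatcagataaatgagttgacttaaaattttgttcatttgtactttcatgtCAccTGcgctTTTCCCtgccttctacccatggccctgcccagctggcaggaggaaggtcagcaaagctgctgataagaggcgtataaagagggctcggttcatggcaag
In Cdkn1a (chr17:29090729-29090978, plus strand) the capitals mark CATG followed after 6 bases by CATG, the core letters of a p53 site.
Cdkn1a: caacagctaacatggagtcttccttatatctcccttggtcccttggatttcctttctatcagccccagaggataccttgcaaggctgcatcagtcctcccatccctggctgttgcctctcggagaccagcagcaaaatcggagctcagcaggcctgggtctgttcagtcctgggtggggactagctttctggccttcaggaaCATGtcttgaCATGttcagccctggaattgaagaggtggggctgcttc
In Txnip (chr3:96557707-96557956, plus strand) and Sgk1 (chr10:21993640-21993889, plus strand) the capitals mark GNACA followed after 3 bases by TGTNC, the letters of a glucocorticoid receptor site.
Txnip: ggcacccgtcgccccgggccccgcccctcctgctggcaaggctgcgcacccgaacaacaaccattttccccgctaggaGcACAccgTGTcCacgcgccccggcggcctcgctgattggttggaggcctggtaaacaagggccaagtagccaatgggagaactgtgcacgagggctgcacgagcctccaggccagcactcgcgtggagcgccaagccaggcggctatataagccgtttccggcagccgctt
Sgk1: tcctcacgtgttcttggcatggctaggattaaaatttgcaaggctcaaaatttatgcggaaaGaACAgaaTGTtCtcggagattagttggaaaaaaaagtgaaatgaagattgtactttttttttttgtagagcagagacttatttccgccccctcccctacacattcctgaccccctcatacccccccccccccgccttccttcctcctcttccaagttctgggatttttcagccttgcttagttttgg
On both strands, the first motif stood in such windows of 0.322% of 27025 genes and of 3 of 34 acinar genes matched (8.82%), which are Cela1, Ctrb1 and Prss1. The shorter TTTCCC alone was far less selective, standing in 24.4% of all genes and in 10 of the 34 acinar genes (29.4%). The p53 letters stood in windows of 0.57% of all genes. The glucocorticoid receptor letters stood in 0.44% of all genes and in 4 of 23 matched glucocorticoid-induced genes (17.4%), namely Map3k6, Mt1, Sgk1 and Txnip. A match describes the letters of the window and does not show binding.

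The question addressed was which transcripts of the spleen differed after cisplatin. The genes that passed the test were acinar genes of the pancreas, many of them for digestive enzymes, and immunoglobulin segments. Of 17686 genes tested in edgeR against a log2 fold change of 0.4, 32 (0.181%) were called with the Benjamini-Hochberg adjusted p-value below 0.05, of which 29 rose (0.164%) and 3 fell (0.017%). Among them, 28 were pancreatic acinar genes, all higher after cisplatin, and 4 were immunoglobulin segments. No gene outside these groups was called by edgeR, although 768 genes had an unadjusted p-value under 0.05, and DESeq2 called 85 genes (0.471%), 29 of them outside these groups. With each control library counted as a replicate, edgeR called 62 genes (0.371%), 18 of them outside these groups. Leaving out cisplatin 1 gave 22 calls and leaving out cisplatin 2 gave 97, 71 of them outside these groups, in a fit that takes the spread from all organs.

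Of 51 acinar genes listed, 43 were in the files and 38 were tested. Of the 38, 28 passed the edgeR test as higher and 34 were at least 2-fold higher. In 37 of them both cisplatin libraries lay above both controls (31.9% of all genes tested did). The median log2 fold change of the list was 9.90, against 0.02 over all genes tested. Its summed level was 47.2 and 45.8 CPM in the controls and 3907 and 2892 CPM after cisplatin. These reads made up 0.00478% and 0.00464% of reads on genes in controls and 0.375% and 0.294% after cisplatin. The enzymes were thus nearly absent from both control libraries and plain in both cisplatin libraries. How the spleens were freed of neighbouring tissue for RNA is not given in the sources used here, and the part that tissue of the pancreas had in these values was not tested.

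Proteases made up most of the enzyme reads. The elastases and chymotrypsins, which cut proteins in the gut, summed to 16.9 and 15.5 CPM in controls and 1380.3 and 1030.9 CPM after cisplatin, and all 5 tested rose. Chymotrypsinogen B, encoded by Ctrb1, had 4 and 6 reads in the controls and reached 482 and 373 CPM after cisplatin, a 5347-fold higher mean (log2 fold change 12.35 ± 0.43 SE, edgeR adjusted p = 0.00321, 8.55e-132 to 0.0279 over the settings tried). Cela1, an elastase, had the highest control level of them, with 609 and 1221 reads, or 15.5 and 14.2 CPM. It reached 394 and 314 CPM after cisplatin, a 24.2-fold rise (log2 fold change 4.59 ± 0.27 SE, edgeR adjusted p = 0.0119, 3.36e-173 to 0.0457 over the settings).

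The trypsins, which activate the other enzymes, summed to 0.485 and 0.338 CPM in controls and 696 and 559 CPM after cisplatin. Of 10 listed, 6 were tested, all 6 were at least 2-fold higher, and 4 passed the edgeR test. Prss2, a main trypsinogen, had 12 and 21 control reads and 243 and 183 CPM after cisplatin. Try5 had no read in either control and 91.8 and 118 CPM after cisplatin, at least 4373-fold higher against a floor of 3 reads over the summed control. Trypsin genes are close copies of each other, so that the split of reads among them is uncertain.

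The 3 carboxypeptidases, which trim peptides from their ends, all rose and summed to 0.255 and 0.349 CPM in controls and 551 and 395 CPM after cisplatin. Cpa1 had 0 and 4 control reads and 267 and 186 CPM after cisplatin. The 6 genes of lipases and their cofactor all rose as well, with sums of 0.0510 and 0.198 CPM in controls and 877 and 554 CPM after cisplatin. Clps, the cofactor colipase, had no control read and 132 and 100.2 CPM after cisplatin, at least 4847-fold higher against the same floor. Of the amylases, which digest starch and are near-identical copies, Amy2b had no control read and 8.47 and 7.08 CPM after cisplatin. The annotation used lists Amy2b as a pseudogene. Amy2a5 was tested and not called. Reg1, a secreted acinar protein, was likewise unread in controls and at 36.8 and 38.0 CPM after cisplatin.

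**Figure D1:**
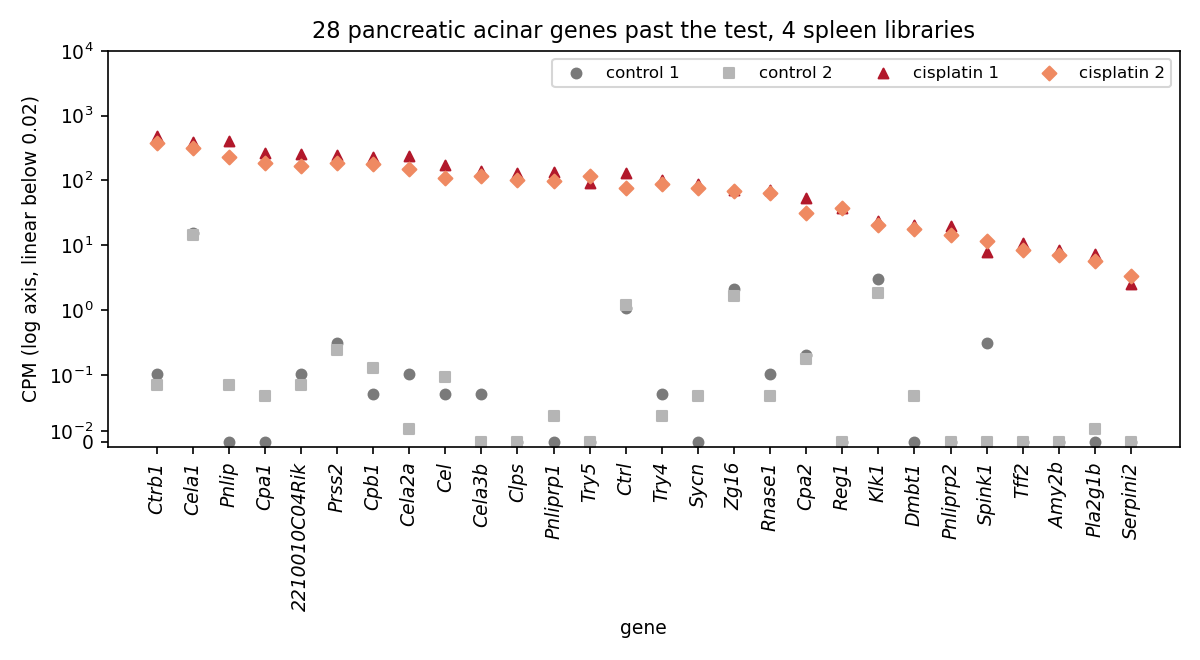
CPM (vertical axis, log scale, linear below 0.02) of the 28 acinar genes that passed the test in the 4 spleen libraries; each point is 1 library. For every gene shown the 2 cisplatin points lie above the 2 control points, and Cela1 has the highest control points, at 15.5 and 14.2 CPM.

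Transcription factors of acinar cells were read far less than the enzymes. Bhlha15, which plasma cells also use, was at 18.5 and 19.8 CPM in controls and 18.9 and 9.76 CPM after cisplatin, so that the groups overlapped (log2 fold change -0.45 ± 0.40 SE). Ptf1a had no read in controls, and 3 and 4 reads after cisplatin. The acinar regulators as a group summed to 19.3 and 20.4 CPM in controls and 19.99 and 11.05 CPM after cisplatin, and none of the 3 tested was called by edgeR or DESeq2, Rbpjl and Nr5a2 having log2 fold changes of 0.72 and 0.71. Among islet genes, 15 were in the files, 5 were tested and none was called. The insulin genes Ins1 and Ins2 had 0 reads in both controls and in cisplatin 1, and 4 and 6 reads in cisplatin 2. The summed islet list was at 6.58 and 4.17 CPM in controls and 34.1 and 5.15 CPM after cisplatin. That sum is not specific to islet cells. Ttr, among the islet genes with the highest mean CPM, is also on the hepatocyte list, which summed to 583 CPM in cisplatin 1. Gp2, an acinar membrane protein, was at 4.64 and 5.15 CPM in controls and 38.2 and 26.1 CPM after cisplatin, yet was not called (log2 fold change 2.68 ± 0.31 SE, edgeR adjusted p = 0.172, 1.19e-21 to 1 over the settings).

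The acinar genes kept similar proportions in both cisplatin libraries. Over the 38 tested genes the correlation of log2(CPM + 1) between them was r = 0.993, a description over genes that share libraries. Of 25 genes with a mean above 10 CPM after cisplatin, 23 were lower in cisplatin 2 than in cisplatin 1, by a median of -0.40 on the log2 scale, and the single ratios ran from -0.95 to 0.36.

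The same 28 genes were low in liver and lung under either treatment, but not in kidney, where they summed to 2130 to 3001 CPM of library reads with Klk1, a kallikrein that kidney also expresses. Without Klk1 they summed to 9.27 to 14.1 CPM in liver and 24.4 to 37.7 CPM in lung. In kidney they summed to 619 to 939 CPM, of which Spink1, a trypsin inhibitor, supplied 544 to 844 CPM. Also without Klk1, the spleen controls were at 20.4 and 18.4 CPM and the cisplatin spleens at 3669 and 2877 CPM. A rise of Cela1 and of Pnliprp1, a lipase-related protein, differed between spleen and each of the 3 other organs. For Cela1 the spleen change exceeded that of kidney, liver and lung by 4.36, 4.11 and 5.20 on the log2 scale (edgeR interaction, adjusted p = 0.0056, 0.0282 and 0.0136). For Pnliprp1 the differences were 12.11, 12.75 and 11.52 (adjusted p = 0.0026, 0.0282 and 0.0136).

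XR-seq, which sequences the oligomers cut out around adducts, gave another reading of the spleen after cisplatin. Over all genes the TS held 7.74 and 7.66 times the reads of the NTS in the 2 spleen libraries. Over the 43 acinar genes it held 0.765 and 0.702 times as many, from 48.0 and 40.5 CPM on the TS and 62.8 and 57.7 CPM on the NTS. Summed over the acinar genes there was thus no excess of repair on the transcribed strand, from few reads per gene (Prss2 had 0 TS and 0 NTS reads in library 1, and 8 and 0 in library 2). Among the other organs, the TS held 1.89 and 1.95 times the NTS reads of these genes in liver, 1.03 and 1.05 times in kidney, and 0.795 and 0.733 times in lung. The glucocorticoid-induced genes, by contrast, stood at 8.26 and 8.25 in spleen, close to all genes. The XR-seq and RNA-seq libraries are separate samples, and whether they came from the same animals is not given.

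Summed over their lists, genes of 2 other tissues were high in cisplatin 1 alone. The hepatocyte list summed to 66.1 and 38.1 CPM in controls, 583 CPM in cisplatin 1 and 51.5 CPM in cisplatin 2. Alb, the serum albumin gene, had 26.1 and 9.39 CPM in controls, 283 CPM in cisplatin 1 and no read in cisplatin 2. The adipocyte list summed to 105 and 108 CPM in controls, 425 CPM in cisplatin 1 and 99.5 CPM in cisplatin 2. Cfd, the fat cell protease adipsin, followed with 3.09 and 3.34 CPM in controls and 59.0 and 4.76 CPM after cisplatin. No gene of either list was called by edgeR or DESeq2. An unadjusted p-value under 0.05 was found for 1 of 15 hepatocyte and 0 of 13 adipocyte genes tested (768 of 17686 genes). In cisplatin 2 most hepatocyte genes lay below both controls, with a median log2 ratio of -2.82 to the summed control, and the list's sum there came mainly from Hp, the acute-phase protein haptoglobin, at 20.1 and 20.7 CPM in controls and 40.9 and 47.9 CPM after cisplatin. The adipocyte genes of cisplatin 2 had a median log2 ratio of -0.25. Both treated libraries lay above both controls for 2 of 15 hepatocyte and 5 of 13 adipocyte genes (31.9% of all genes tested). Unlike the acinar genes, most genes of these lists were thus not above both controls in both treated libraries.

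Immunoglobulin segments, the V, D, J and C pieces that B cells join into antibody genes, differed widely in both directions. The segments counted here include D segments and V pseudogenes, some of them barely read, such as Ighd2-4 at 0.128 and 0.186 CPM in controls. Of 278 segments tested, 61 were at least 2-fold higher and 60 at least 2-fold lower, with a median log2 fold change of 0.05, while 6.55% and 3.68% of all genes tested passed these sizes. Igkv9-120, a kappa light chain V segment, was at 1296 and 1345 CPM in controls and 42.9 and 52.7 CPM after cisplatin, and fell by 4.80 ± 0.21 (SE) on the log2 scale (edgeR adjusted p = 0.00492, 1.11e-240 to 1 over the settings). Ighv2-2, a heavy chain V segment, was at 18.7 and 19.9 CPM in controls and 458 and 613 CPM after cisplatin, and rose by 4.77 ± 0.32 (SE) (adjusted p = 0.0191, 9.97e-156 to 0.157 over the settings). Ighv1-18 and the joining segment Igkj1 also fell, by 3.33 and 2.44 on the log2 scale (adjusted p = 0.00858 and 0.0402). For each of these 4 segments both cisplatin libraries lay outside the controls.

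The set of V segments in use also differed between the cisplatin libraries themselves. Over 153 V segments, the correlation of log2 levels was 0.999 between the controls, 0.714 between the cisplatin libraries and 0.603 to 0.699 between a control and a cisplatin library. For 101 of the 278 segments the cisplatin libraries lay on opposite sides of the summed control. The segment with most V reads was Igkv3-4 in the controls, with 13.3% and 13.0%, and the lambda segment Iglv1 in the cisplatin libraries, with 12.6% and 26.9%. The lambda constant gene Iglc1 was at 225 and 229.6 CPM in controls and 1810.2 and 2592 CPM after cisplatin, and did not pass the test (log2 fold change 3.26 ± 0.32 SE, edgeR adjusted p = 0.087, 2.14e-57 to 0.341 over the settings). V segments are similar in sequence, so the split of reads among them is uncertain.

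**Figure D2:**
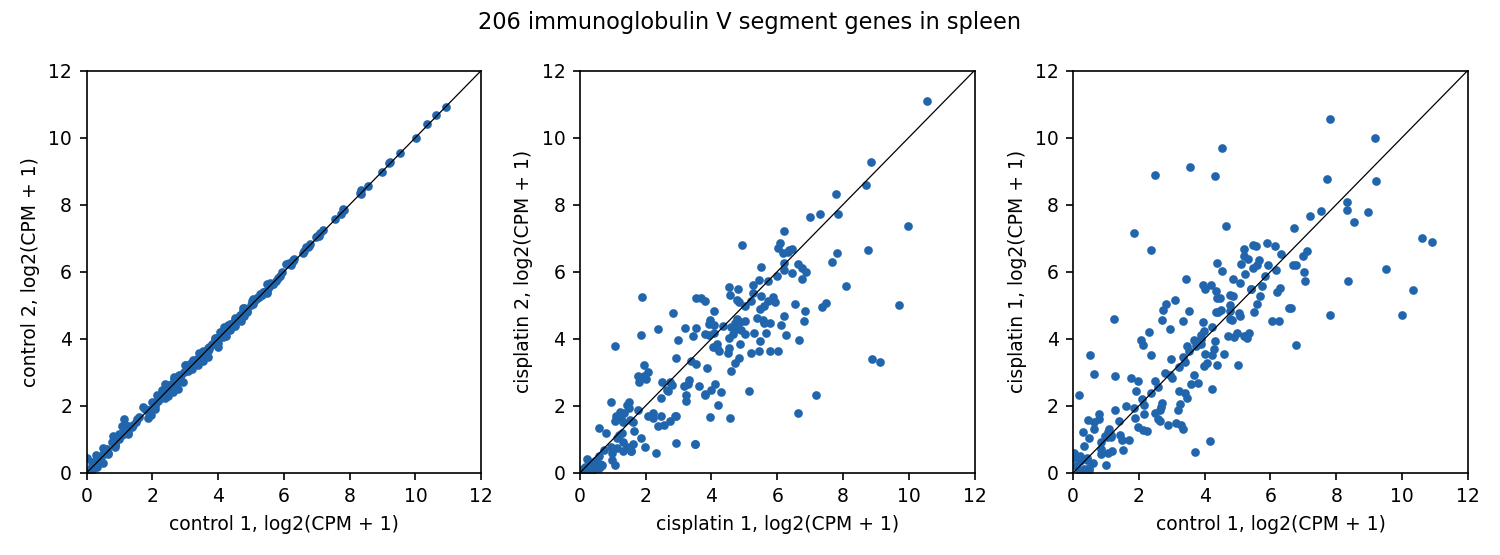
Log2(CPM + 1) of 206 immunoglobulin V segments in 1 library against another, for the control pair (left), the cisplatin pair (middle) and control 1 against cisplatin 1 (right); each point is a segment and the line marks equal levels. The control pair lies along the line, with r = 0.999 over 153 segments, while the cisplatin pair scatters, with r = 0.714.

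With the acinar and islet genes removed before scaling, 17643 genes were tested and edgeR called none (0% of those tested), while 739 had an unadjusted p-value under 0.05. DESeq2 called 48 genes in the same comparison, 23 of them immunoglobulin segments, and edgeR called 54 when cisplatin 2 was left out. Unless stated otherwise, calls by DESeq2 are against the summed control. With each control as a replicate DESeq2 called 302 genes (1.8%), among them 12 glucocorticoid-induced genes, 4 p53 targets, 3 immediate-early genes, 3 genes of mitosis and replication, 2 genes each of the clock, erythroid and heat shock lists, and 1 each of the NF-kB, BCL2, hepatocyte, stromal, plasma cell, neutrophil and marginal zone lists. Counted by size alone, 1158 of the 17686 genes (6.55%) were at least 2-fold higher and 651 (3.68%) at least 2-fold lower, and 1061 and 591 of these were outside the pancreatic lists and immunoglobulin segments. The response outside the pancreas is therefore described below by levels and by counts, and no gene in it passed the edgeR test.

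The glucocorticoid-induced genes, which the glucocorticoid receptor switches on in lymphocytes and many other cells, were higher after cisplatin almost throughout. Of 26 genes tested, 25 were higher in both cisplatin libraries than in both controls (31.9% of all genes), 11 were at least 2-fold higher, and the median log2 fold change was 0.96, against 0.02 over all genes. The median was 0.84 in cisplatin 1 and 1.07 in cisplatin 2. None was called by edgeR, 16 of the 26 had an unadjusted p-value under 0.05 (768 of 17686 genes did), and DESeq2 called 5. No sample records a hormone level.

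Tsc22d3, which encodes the anti-inflammatory protein GILZ, was at 136 and 139.9 CPM in controls and 443 and 750.1 CPM after cisplatin (log2 fold change 2.10 ± 0.39 SE, edgeR adjusted p = 0.641, 6.51e-12 to 1 over the settings). Txnip, which binds thioredoxin and restrains glucose uptake, was at 496 and 494 CPM in controls and 1033 and 1040.3 CPM after cisplatin (1.06 ± 0.18 SE, adjusted p = 0.641, 2.85e-12 to 1). In both genes the groups were far apart and the controls nearly equal. Klf9, a transcription factor induced by the receptor, was at 29.3 and 29.9 CPM in controls and 58.1 and 60.1 CPM after cisplatin (0.98 ± 0.16 SE, adjusted p = 0.641, 2.61e-05 to 1). Nfkbia, the inhibitor of NF-kB, was at 206 and 202 CPM in controls and 355 and 339 CPM after cisplatin (0.76 ± 0.18 SE, adjusted p = 0.989, 0.00658 to 1).

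Other members of the list were picked out after their values were seen, for their size. Pdk4, a kinase that limits pyruvate oxidation, was at 16.0 and 15.3 CPM in controls and 54.0 and 82.8 CPM after cisplatin. Errfi1, a feedback inhibitor of the EGF receptor, was at 26.5 and 24.7 CPM in controls and 82.5 and 118 CPM after cisplatin. Ddit4, an inhibitor of mTORC1 that is also on the p53 list, was at 78.4 and 77.6 CPM in controls and 215 and 303 CPM after cisplatin. These had log2 fold changes of 2.13, 1.98 and 1.73, and DESeq2 adjusted p-values of 8.21e-06, 7.96e-06 and 0.000252, against edgeR values of 0.402, 0.374 and 0.54. Fkbp5, a chaperone of the receptor, was at 93.7 and 92.8 CPM in controls but at 153 and 296 CPM after cisplatin, so that the treated libraries themselves lay far apart. The exception to the direction of the list was Tgm2, a transglutaminase, at 130.4 and 122 CPM in controls and 123 and 118 CPM after cisplatin.

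Of the p53 targets, few changed by much, though most lay above both controls. Among 39 tested, 28 had a positive log2 fold change (51.7% of all genes had). In 24, both cisplatin libraries lay above both controls (31.9% of all genes did). The median was 0.18, and 5 were at least 2-fold higher (6.55% of all genes were). None was called by edgeR, with 4 at an unadjusted p-value under 0.05 (768 of 17686 genes were). DESeq2 called 2, Cdkn1a and Ddit4, and Ddit4 had the largest change of the list. Cdkn1a, which arrests the cell cycle, was at 13.1 and 13.2 CPM in controls and 41.1 and 33.6 CPM after cisplatin (log2 fold change 1.496 ± 0.20 SE, edgeR adjusted p = 0.368, 1.6e-09 to 1 over the settings). Bbc3, the apoptosis activator PUMA, picked out after its values were seen, was at 8.65 and 9.74 CPM in controls and 26.6 and 22.4 CPM after cisplatin (1.37 ± 0.21 SE, adjusted p = 0.506, 1.78e-06 to 1). Both genes had clearly separate groups. Mdm2, the ligase that degrades p53, was at 106 and 110 CPM in controls and 98.3 and 100 CPM after cisplatin (-0.14 ± 0.16 SE), and Ccng1, another target, was at 183 and 188 CPM in controls and 186 and 198 CPM after cisplatin. Within the BCL2 family of 17 tested, 12 lay above both controls, the median was 0.19 and Bbc3 was the only gene at least 2-fold higher. Mcl1, which protects from apoptosis, was at 792 and 806 CPM in controls and 775 and 757 CPM after cisplatin.

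Clock genes were close to their control levels apart from a few. The median of 24 genes tested was 0.19 with 16 positive (51.7% of all genes were). None was called by edgeR or DESeq2, with 2 at an unadjusted p-value under 0.05 (768 of 17686 genes were). Per1, a clock repressor that also belongs to the glucocorticoid list, was at 30.0 and 28.6 CPM in controls and 53.5 and 65.5 CPM after cisplatin (log2 fold change 1.03 ± 0.20 SE, edgeR adjusted p = 0.816, 0.0028 to 1 over the settings). Sik1, a kinase that limits resetting of the clock, was at 51.3 and 49.1 CPM in controls and 94.2 and 119 CPM after cisplatin (1.09 ± 0.22 SE, adjusted p = 0.816, 0.000587 to 1). Cirbp, a cold-induced RNA-binding protein outside the lists and named after its values were seen, was at 57.9 and 56.6 CPM in controls and 162 and 147 CPM after cisplatin (1.43 ± 0.18 SE, adjusted p = 0.292, 1.07e-18 to 1).

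**Figure D3:**
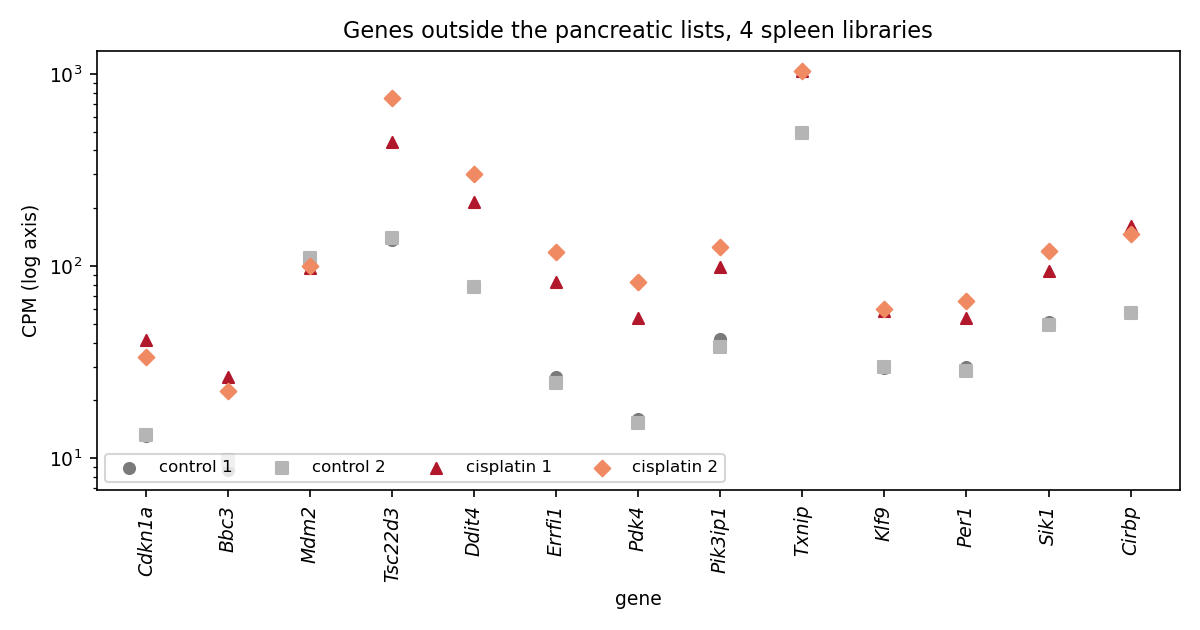
CPM (vertical axis, log scale) of 13 genes outside the pancreatic lists in the 4 spleen libraries; each point is 1 library. The cisplatin points lie above the control points in all genes but Mdm2, which has all 4 between 98.3 and 110 CPM. Bbc3, Ddit4, Errfi1, Pdk4, Pik3ip1 and Cirbp were chosen after their values were seen. None of the 13 passed the edgeR test.

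The immediate-early genes, which growth and stress signals switch on within minutes, were mostly higher by a small amount. Of 30 tested, 26 were positive (51.7% of all genes were), with a median of 0.36. In 21, both cisplatin libraries lay above both controls (31.9% of all genes did). None was called by edgeR or DESeq2, with 5 at an unadjusted p-value under 0.05 (768 of 17686 genes were). Jun, a subunit of AP-1 named after its values were seen, was at 42.3 and 39.9 CPM in controls and 47.7 and 46.0 CPM after cisplatin, and Btg2, an inhibitor of cell division, was at 228 and 224 CPM in controls and 260 and 236 CPM after cisplatin. Klf2, which keeps lymphocytes quiescent, was at 201 and 196 CPM in controls and 330.2 and 285 CPM after cisplatin. The remaining stress lists had no gene called by edgeR, or by DESeq2 against the summed control. The integrated stress response list had a median of 0.31 over 22 genes, the NRF2 and metallothionein list 0.23 over 24, the NF-kB and cytokine list 0.09 over 29, and the nucleotide excision repair list 0.04 over 29. On the lower side, the ER unfolded protein response list had a median of -0.31, with 16 of 17 genes below both controls (31.2% of all genes were), and the heat shock list a median of -0.23 over 19. Hspa5, the ER chaperone BiP, was at 1055 and 1066 CPM in controls and 790.5 and 764 CPM after cisplatin. Interferon-stimulated genes differed between the treated libraries, with a median of 0.00 in cisplatin 1 and 0.67 in cisplatin 2.

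The spleen's red cell precursors showed lower levels of several defining genes, although globin transcripts did not follow. Of 20 erythroid genes tested, 14 were at least 2-fold lower (3.68% of all genes were) and 15 below both controls (31.2% of all genes were). Their median log2 fold change was -1.27. None was called by edgeR or DESeq2, with 6 at an unadjusted p-value under 0.05 (768 of 17686 genes were). The median was -0.83 in cisplatin 1 and -2.06 in cisplatin 2. Car1, a carbonic anhydrase of early red cell precursors, was at 120.4 and 128 CPM in controls and 33.7 and 15.6 CPM after cisplatin (log2 fold change -2.37 ± 0.43 SE, edgeR adjusted p = 0.615, 0.0165 to 1 over the settings). Klf1, the master regulator of red cell genes, was at 25.1 and 26.8 CPM in controls and 9.68 and 1.69 CPM after cisplatin. The adult beta globin gene Hbb-bs, in contrast, was at 7359 and 7082 CPM in controls, 13898 CPM in cisplatin 1 and 4928 CPM in cisplatin 2, so that the treated libraries lay on both sides of the controls. Car1 and Klf1 were chosen after their values were seen. Tal1, a transcription factor of red cell precursors that was not on the list, was at 48.6 and 48.3 CPM in controls and 18.4 and 12.4 CPM after cisplatin (-1.67 ± 0.26 SE, adjusted p = 0.483, 9.72e-08 to 1).

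Genes of mitosis and DNA replication were lower by a small amount. Of 45 tested, 40 had a negative log2 fold change (8549 of 17686 genes tested had), with a median of -0.42. Below both controls were 31 of them (31.2% of all genes were), and none was 2-fold lower or called by edgeR or DESeq2. An unadjusted p-value under 0.05 was found for 8 genes (768 of all genes tested). Mki67, the proliferation marker Ki-67, was at 316 and 320.2 CPM in controls and 194 and 163 CPM after cisplatin (log2 fold change -0.84 ± 0.19 SE, edgeR adjusted p = 0.965, 0.0218 to 1 over the settings). Pcna, the sliding clamp of DNA polymerase, was level at 179 and 176 CPM in controls and 188 and 176 CPM after cisplatin.

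Markers of the other cell types had medians between -0.16 and 0.58, and edgeR called none of them, while DESeq2 called Iglc1 alone. The B cell list had a median of 0.05 over 18 genes, although its summed level was 41282 and 41346 CPM in controls and 32690.5 and 24927 CPM after cisplatin, mostly through Ighm, the IgM heavy chain gene, at 34633 and 34654 CPM in controls and 26251 and 18215 CPM after cisplatin. T cell markers had a median of 0.24 over 19 genes, red pulp macrophage markers -0.09 over 14, dendritic cell markers 0.00 over 11, germinal centre markers -0.02 over 7, NK cell markers 0.03 over 12 and platelet genes 0.10 over 10. Plasma cell markers had a median of -0.09 over 11 genes, endothelial genes 0.25 over 13, and stromal genes 0.11 over 15. Among marginal zone macrophage markers, with a median of -0.16 over 4 genes, Siglec1, the sialoadhesin receptor, was at 55.3 and 53.8 CPM in controls and 32.3 and 30.1 CPM after cisplatin (log2 fold change -0.81 ± 0.15 SE, edgeR adjusted p = 0.856, 0.0254 to 1 over the settings). Neutrophil and monocyte markers had a median of 0.58 over 18 genes, with 11 above both controls (31.9% of all genes were). The list's summed level was 3059.7 and 3086 CPM in controls and 3105 and 3266 CPM after cisplatin. S100a9, a neutrophil protein that is also on the glucocorticoid list, was at 186 and 187 CPM in controls and 257 and 381 CPM after cisplatin.

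**Figure D4:**
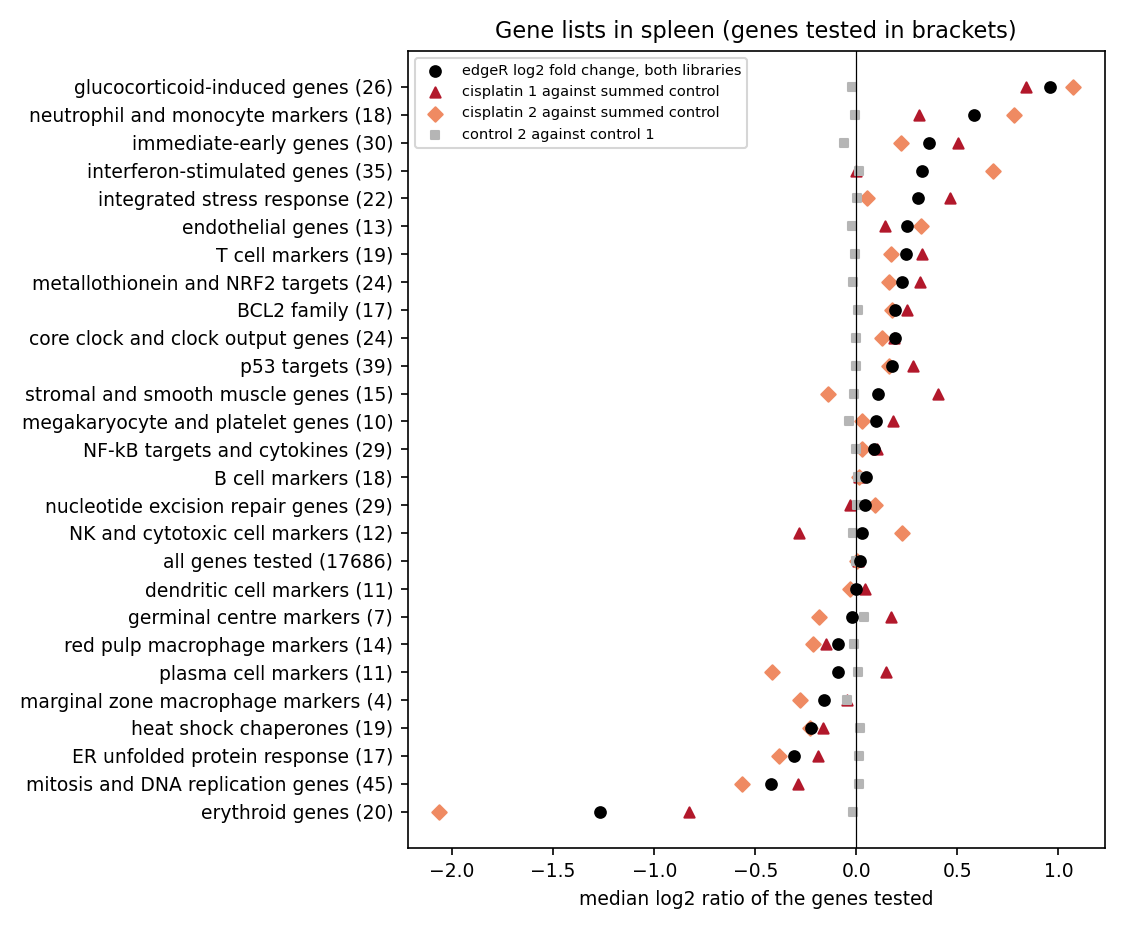
Median log2 ratio (horizontal axis) of the genes tested in each list of the spleen other than the pancreatic, hepatocyte and adipocyte lists, for the edgeR fit of both cisplatin libraries, for each cisplatin library against the summed control, and for control 2 against control 1, with all genes tested as the reference. Among the lists shown, glucocorticoid-induced genes have the highest median, 0.96, and erythroid genes the lowest, -1.27, while the control pair stays between -0.06 and 0.04 in each list shown.

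Long genes were lower after cisplatin, the more so the longer they were. Genes under 10 kb had a median log2 fold change of 0.18 (5565 genes), those of 10 to 50 kb 0.04 (7711 genes), those of 50 to 100 kb -0.11 (2267 genes), those of 100 to 200 kb -0.23 (1315 genes) and those of 200 kb and over -0.53 (818 genes). In the longest class the cisplatin libraries gave -0.60 and -0.47, and control 2 against control 1 gave 0.01. There, 162 genes (19.8%) were at least 2-fold lower, against 3.68% of all genes tested, and 73.5% lay below both controls, against 31.2%. Restricted to 466 protein-coding genes of 200 kb and over with a mean of at least 5 CPM, the median was -0.52. No gene of this class was called by edgeR, and DESeq2 called 8 lower.

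A pair of the lower genes of 200 kb and over is named here after their values were seen. Ptprm, a receptor phosphatase of 688 kb, was at 20.9 and 21.6 CPM in controls and 4.42 and 5.81 CPM after cisplatin (log2 fold change -2.07 ± 0.27 SE, edgeR adjusted p = 0.276, 3.98e-14 to 1 over the settings). Itga9, an integrin subunit of 294 kb, was at 99.7 and 93.6 CPM in controls and 22.5 and 30.1 CPM after cisplatin (-1.86 ± 0.22 SE, adjusted p = 0.202, 5.92e-16 to 1). In each the treated libraries lay well below both controls. Repair of Ptprm in spleen lay mainly on the transcribed strand, with 2660 TS and 93 NTS reads in XR-seq library 1 and 8633 and 344 in library 2.

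**Figure D5:**
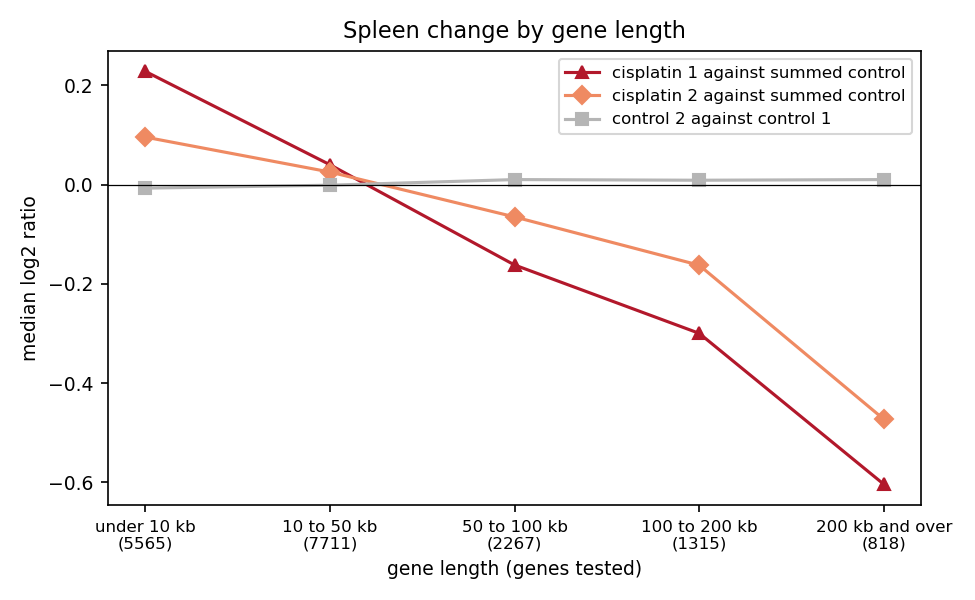
Median log2 ratio (vertical axis) of the spleen genes tested in 5 classes of gene length (horizontal axis, number of genes in brackets), for each cisplatin library against the summed control and for control 2 against control 1; lines join the medians. Both cisplatin lines descend with length, to -0.60 and -0.47 at 200 kb and over, and the control line stays at 0.01 there.

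The same order of length classes was found in the other organs. Medians at 200 kb and over, on 1 scale for all organs, were -0.52 in spleen, -0.83 in lung, -0.86 in kidney and -1.33 in liver. The difference between organs in these medians was not tested.

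Set against kidney, 11 immediate-early genes changed less upward in spleen by the test of the difference. In a fit of all organs, the change in spleen differed from that in kidney for 58 of 19100 genes (0.304%), of which 45 changed less upward in spleen or more downward, the 11 immediate-early genes among them, while 11 of the other 13 were acinar genes. The count was 20 without cisplatin 1 and 112 without cisplatin 2. Plk3, a stress kinase, was at 12.6 CPM in the summed spleen control and 18.3 and 16.0 CPM after cisplatin, whereas kidney went from 4.87 and 3.62 CPM to 431 and 414 CPM (difference -6.35 ± 0.30 SE on the log2 scale, edgeR interaction adjusted p = 7.88e-06). Atf3, a stress transcription factor, was at 6.18 CPM in the spleen control and 10.4 and 5.38 CPM after cisplatin, against 2.02 and 3.27 CPM rising to 179 and 207 CPM in kidney (-5.94 ± 0.66 SE, adjusted p = 0.0045). Myc, a growth regulator, was at 78.1 CPM in the spleen control and 64.9 and 72.0 CPM after cisplatin, while in kidney it went from 6.88 and 6.195 CPM to 54.4 and 50.9 CPM (-3.33 ± 0.31 SE, adjusted p = 0.0022). The change of Cdkn1a differed from that in kidney by -2.90 and of Mdm2 by -2.07 on the log2 scale, without passing the test (adjusted p = 0.402 and 0.149). Against liver 7 genes differed (0.0366%), 5 of them acinar, and against lung 2 did (0.0105%), Cela1 and Pnliprp1, while 1313 and 812 genes had an unadjusted p-value under 0.05.

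Genes outside the pancreatic lists that stood 2-fold apart also differed in the strand ratio of repair as a description, in spleen and in other organs. The 116 protein-coding genes at least 2-fold higher, with a mean of at least 2 CPM and both treated libraries above both controls, had a TS to NTS ratio of 3.64 and 3.56 in the spleen XR-seq libraries. The 192 genes that were correspondingly lower had 13.0 and 12.3, and the 11790 genes that were less than 2-fold apart had 10.3 and 10.2. These are ratios of summed reads, and the order of the lower genes turned when each gene counted equally. The median log2 TS to NTS ratio per gene was then 2.71 and 2.32 for the higher genes, 3.73 and 3.44 for the lower genes and 4.00 and 3.98 for the remaining genes. By summed reads the higher genes had the lowest ratio in the other organs as well. It was 5.78 and 5.54 in lung, 3.51 and 3.03 in liver and 4.15 and 4.29 in kidney. The remaining genes had 12.1 and 11.6, 7.33 and 6.47, and 7.23 and 7.23 there. The low ratio of the higher genes was thus not particular to spleen. For Cdkn1a, 236 TS and 37 NTS reads were counted in spleen library 1 and 817 and 74 in spleen library 2. Per1 had 1406 and 43 reads in library 1 and 4250 and 122 in library 2, so that repair of both genes lay mainly on the transcribed strand.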

How the data were processed

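RNA-seq was available for 2 control and 2 cisplatin-treated spleen libraries, with 12 libraries of the 3 other organs and 8 XR-seq libraries used for reference. Per the labels and methods, the authors aligned RNA-seq reads to mm10 with STAR, counted them on genes with featureCounts and deposited raw counts. The kit named does not keep strand, so overlapping genes cannot be told apart. For XR-seq the authors trimmed with cutadapt, aligned with BWA, removed duplicates with Picard and deposited counts per gene on each strand. Tool versions are not given in the sources used here. Of 25059 genes in the files, 25041 were matched to the annotation.

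The control libraries were summed. Genes passing filterByExpr were scaled by TMM and tested in R 4.3.3 with edgeR 4.0.16 (quasi-likelihood fit, glmTreat against a log2 fold change of 0.4, Benjamini-Hochberg adjusted p under 0.05), a threshold taken from the study; interactions with other organs were tested against 0. DESeq2 1.42.0 was an alternative. Scripts were tested on simulated data. Summaries used Python 3.11.15. CPM, 30 gene lists (633 symbols, 17 not in the files), length classes and strand ratios are descriptions without a test. The 95% intervals and the floor of 3 reads cover counting error only. Each SE printed is an approximation. It is the size of the edgeR log2 change over the square root of the F statistic of the test against 0. In each list, up to 4 members past the test were to be named by size of change, or up to 3 with the highest mean CPM, besides Cdkn1a, Per1, Mdm2, Sik1 and Klf9; the rule for other protein-coding genes past the test found none. Every other gene named, among them Bbc3, Jun, Sgk1, Tal1, Plk3, Atf3, Myc, further acinar genes and the immunoglobulin segments, was chosen after its values were seen. The samples and lists were chosen with earlier results of these data known. Alternatives were each control as a replicate, the replicate block, all organs in 1 fit, DESeq2, RLE, no filter, a test against 0, removal of pancreatic genes and leaving out each library.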

Additional observations from a re-analysis of the deposited data

Results flagged for a closer look

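These results stand out because the change after cisplatin in spleen differed from the change in another organ by an edgeR interaction test with a Benjamini-Hochberg adjusted p below 0.05. Log2 differences are spleen minus the other organ. Negative differences against kidney were found for the stress and growth genes Atf3 (-5.94), Myc (-3.33), Klf6 (-2.95), Jun (-2.93), Btg2 (-2.90) and Gadd45a (-2.86). In each of these genes both treated kidney libraries lay above both kidney controls, while the spleen libraries stayed within a 2-fold range. Cela1, an elastase gene of the pancreas, rose more in spleen than in kidney (4.36), liver (4.11) and lung (5.20). Pnliprp1, a lipase-related gene of the pancreas, did so by 12.11, 12.75 and 11.52.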

How the results depend on the processing

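The count of called genes, 32, depended on how the controls were used and on the tool. It was 62 with each control library as a replicate, 85 with DESeq2, 302 with DESeq2 and each control as a replicate, 58 with no filter on low counts, and 0 without the pancreatic genes or without pancreatic, liver, fat and immunoglobulin genes. It was 22 to 97 when 1 library was left out, the 22 without cisplatin 1 and the 97 without cisplatin 2. Without pancreatic genes the count of 0 became 8, 48 with DESeq2, 19 with no filter and 0 to 54 without 1 library, the 54 again without cisplatin 2. List members called, 28, were 0 without the pancreatic genes or the 4 groups, 60 with DESeq2 and each control as a replicate, and 18 to 28 without 1 library, 18 being without cisplatin 1. The 1809 genes at least 2-fold apart became 4986 with no filter and 1591 to 3275 without 1 library, and the median of genes of 200 kb and over ran from -0.73 to -0.52, with 3275 and -0.73 without cisplatin 2. The fits without a cisplatin library also take the spread, filter and scaling from all organs, so that they change more than 1 choice. With all 4 spleen libraries that fit gave 26 calls, 2488 genes and -0.60. The cause of these differences was not tested, beyond the genes removed by construction. Cdkn1a, Per1, Mdm2, Sik1, Klf9, Tsc22d3, Txnip and Cirbp kept their sign under all 14 alternatives, and Cdkn1a and Cirbp passed the test in 4 of them, Klf9, Tsc22d3 and Txnip in 3, Per1 and Sik1 in 2 and Mdm2 in 0. With the controls summed, only Cdkn1a, Cirbp and Tsc22d3 passed, each by DESeq2. All other passes counted the nearly alike controls as replicates. The glucocorticoid median was 0.75 without cisplatin 2 and otherwise moved little. Removing the 4 groups and DESeq2 with each control as a replicate were chosen after seeing the data.

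Genes differing from kidney, liver and lung numbered 58, 7 and 2. They were 501, 247 and 112 with each library as a sample, 181, 56 and 104 with no filter, and 20 to 112, 3 to 34 and 2 to 92 without 1 spleen library, where the low counts for kidney and liver came without cisplatin 1 and the high counts without cisplatin 2.

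With the replicate number as a block, 172 genes were called, 53 of them in lists and 90 without the pancreatic genes, and 1295, 683 and 456 differed from kidney, liver and lung. The deviations of same-numbered spleen libraries correlated at 0.337 over 16731 genes, but with 2 pairs and no shared batch in the labels the libraries share only a number. The floor of 3 reads over the summed control is 0.0240 CPM, so that depth limits only genes near that level.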

Other observations

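V segments of each treated spleen were closer to those of the treated lung with the same replicate number than to those of the other. Over 153 V segments, the correlation of log2 levels between cisplatin 1 of spleen and cisplatin 1 of lung was 0.703, against 0.625 with cisplatin 2 of lung. Cisplatin 2 of spleen gave 0.771 with cisplatin 2 of lung and 0.620 with cisplatin 1 of lung. The treated spleens gave 0.714 with each other, so that cisplatin 1 of spleen was no closer to its same-numbered lung. The spleen and lung controls gave 0.816 to 0.822 with each other, and the lung controls gave 0.994 between themselves. These are descriptions over segments, and the labels do not say which libraries came from the same animal.

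A pair of genes of red cell precursors and blood progenitors outside the lists was also lower in both treated libraries. Pklr, the red cell and liver form of pyruvate kinase, was at 13.1 and 14.8 CPM in controls and 3.03 and 0.971 CPM after cisplatin, with a log2 fold change of -2.88 ± 0.64 (SE), an edgeR adjusted p of 0.803 and a DESeq2 adjusted p of 0.0108. Myb, a transcription factor of blood progenitors, was at 48.6 and 47.7 CPM in controls and 23.4 and 22.7 CPM after cisplatin, with an edgeR adjusted p of 0.497. Both were named after their values were seen.

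Dcn, the matrix proteoglycan decorin, was at 63.6 and 65.5 CPM in controls and 144 and 124 CPM after cisplatin, the only one of 15 stromal genes tested that was at least 2-fold higher, with an edgeR adjusted p of 0.694.

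The control libraries differed in some other-tissue genes. Alb had 1022 reads in control 1 and 806 in the deeper control 2, 9982 in cisplatin 1 and 0 in cisplatin 2, the deepest spleen library. Spink1 had 12 reads in control 1 and 0 in control 2, and the hepatocyte list had a median log2 ratio of -1.33 for control 2 against control 1.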
